A study of Bos taurus with 12 samples.

Results

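Small leucine-rich proteoglycans are secreted proteins of the extracellular matrix whose leucine-rich repeats bind collagen fibrils, and several of them also bind growth factors such as transforming growth factor beta. In skeletal muscle they are made largely by fibroblasts and fibro-adipogenic progenitors, the connective tissue cells that carry the receptor PDGFRA, although myogenic cells can make some of them too. Described here are 9 genes of the 18436 in the gene expression table, chosen by name: the proteoglycan genes DCN, LUM, FMOD, OGN, PRELP and ASPN, and the cell surface genes PDGFRA, PDGFRB and THY1. N6-methyladenosine (m6A), a methyl mark on adenosines of mRNA, was followed in the same genes by taking their peaks from the peak lists.

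The study compared cultures of primary muscle cells before and after differentiation, to learn how m6A is arranged on mRNA in the course of bovine myogenesis. Myoblasts were prepared from longissimus dorsi muscle of newborn Qinchuan cattle, and the study's methods name a single animal as their source. The GM group held proliferating myoblasts at 80% confluence in growth medium with 20% fetal bovine serum, taken at day 0. The DM group held cells kept for 4 days in differentiation medium with 2% horse serum, so that time, serum and confluence all differed between the groups and cannot be told apart. Each group had 3 cultures, with an input and an m6A immunoprecipitated (IP) library from each, and expression was read from the 6 input libraries. P-values therefore measure only the spread between these cultures, not between animals.

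Muscle markers moved with the labels, as 4 of 7 myoblast markers were called lower in DM and 7 of 11 myotube markers higher. Of all genes tested, 6.97% were called lower and 4.9% higher. Some transcripts used as fibroblast markers were also at high levels, while 4 of the 27 on that list averaged under 0.5 FPKM. Mean MYOD1, a transcription factor of committed myoblasts, was 61.6 FPKM (fragments per kilobase of transcript, scaled by the authors to the mapped fragments of each library) in GM and 24.8 in DM, and MYH3, an embryonic myosin heavy chain, was 273.0 and 659.3. PAX7, the stem cell factor, had only 1.08 FPKM in GM and 0.0624 in DM. The 27 markers of fibroblasts and fibro-adipogenic progenitors summed to 2528 to 2758 FPKM in GM libraries and 2477 to 2533 in DM libraries, with S100A4, FBLN2 and LOX the most abundant. CD34 and PI16, among the 4 of that list under 0.5 FPKM, stayed at or below 0.171 FPKM in every library. The other 23 of the 27 averaged at least 0.5 FPKM. Each of the 5 endothelial markers in the table averaged under 0.5 FPKM. What part cells other than muscle cells had in the values below was not tested, and in these bulk libraries fewer cells of a type and less RNA per cell cannot be told apart.

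All 9 genes passed the filter on low values, set at an average of 0.5 FPKM over the 6 libraries. The study's thresholds, p below 0.05 before adjustment and a difference of more than 1.5-fold, were applied to limma fits of log2(FPKM + 1), and by them 11.9% of the 12302 genes tested were called. Of the 9, 3 were called, of which FMOD rose in DM (4.9% of all genes tested were called higher) and OGN and PRELP fell (6.97% were called lower). With the Benjamini-Hochberg adjusted p under 0.05 and no fold threshold, 6 of the 9 passed, against 42.8% of all genes, and the GM and DM libraries did not overlap for 6 of the 9, against 54.1%. The median log2 fold change was 0.04 over the 9 genes and -0.05 over all genes. Of all calls 41.3% were higher in DM, 603 against 858 lower, whereas with every library scaled to the same sum (TPM) 55.1% were, 970 against 792.

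**Figure D1:**
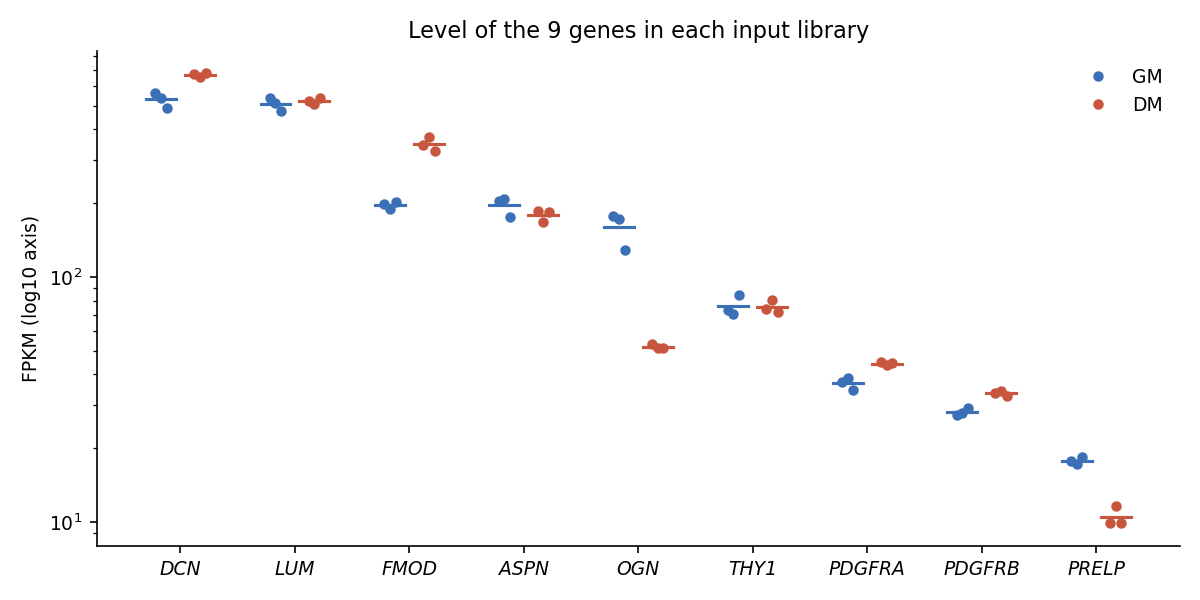
FPKM of the 9 genes in each input library on a log10 axis, with GM libraries in blue, DM libraries in red, and a bar at the mean of 3 libraries. DCN and LUM had the highest levels in both groups, and OGN went from the fifth place in GM to the sixth in DM, below THY1.

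By level per length, DCN and LUM led in both media. In GM the order was DCN, LUM, FMOD, ASPN, OGN, THY1, PDGFRA, PDGFRB and PRELP. The ranges of DCN and LUM overlapped there, as did those of FMOD and ASPN and of ASPN and OGN, so these neighbours were not separated. In DM the order was DCN, LUM, FMOD, ASPN, THY1, OGN, PDGFRA, PDGFRB and PRELP, and no neighbours overlapped. Together the 16 small leucine-rich proteoglycan genes in the table held 0.355 to 0.415% of all FPKM in GM libraries and 0.472 to 0.482% in DM libraries. Both parts of this share moved. The 16 genes summed to 1544 to 1749 FPKM in GM libraries and 1846 to 1865 in DM libraries. All genes summed to 415740 to 434458 FPKM in GM libraries and less, 386436 to 390827, in DM libraries.

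DCN and LUM lie side by side on the minus strand of chromosome 5, at chr5:21014376-21053400 and chr5:20971289-20978528 of the ARS-UCD1.2 build. DCN encodes decorin, which spaces collagen fibrils and binds transforming growth factor beta and myostatin. It stood at 563.2, 539.0 and 489.8 FPKM in GM and at 669.7, 652.9 and 677.3 in DM. Every DM library was above every GM library. The ratio of the means was 1.26, with a log2 fold change of 0.33 (95% interval 0.19 to 0.47) and an adjusted p of 0.0032 by limma, which is short of the 1.5-fold threshold. LUM encodes lumican, a keratan sulfate proteoglycan that limits fibril thickness. Its GM libraries held 535.1, 512.3 and 477.1 FPKM and its DM libraries 520.0, 506.5 and 537.0. The groups overlapped, and the log2 difference had an interval of -0.10 to 0.17 (adjusted p = 0.64 by limma). Within a library, DCN over LUM was 1.04 ± 0.0148 (SD, n = 3) in GM and 1.28 ± 0.0156 in DM. This difference gave p = 0.1 in a two-sided exact permutation test, the smallest that 3 against 3 allow, and it was 1 of 5 such ratios compared. The other genes of that cluster, KERA and EPYC, were under the filter, at means of 0.645 and 0.0193 FPKM in GM.

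On chromosome 8 the genes OGN, OMD, ASPN and ECM2 form another cluster on the minus strand, and OGN was the only one of them called. OGN encodes osteoglycin, also called mimecan, a matrix protein of muscle and bone. Its GM libraries held 176.6, 172.6 and 128.7 FPKM and its DM libraries 53.3, 51.1 and 51.3. The lowest GM library was still above the highest DM library. OGN fell 3.07-fold by the means, with a log2 fold change of -1.59 (interval -1.84 to -1.33) and an adjusted p of 1.6e-05 by limma, and its rank among all 18436 genes went from 364 to 1123. ASPN encodes asporin, a relative of decorin that binds collagen and transforming growth factor beta. It held 203.5, 208.0 and 175.5 FPKM in GM and 186.0, 168.0 and 184.6 in DM, and the groups overlapped. Its log2 difference was -0.12 (interval -0.30 to 0.05, adjusted p = 0.24 by limma), and without the third GM culture it was -0.20 with an adjusted p of 0.02. With TPM scaling it was 0.00.

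The other genes of the chromosome 8 cluster had lower levels. OMD, which encodes osteomodulin, averaged 8.69 ± 0.93 FPKM in GM and 7.23 ± 0.603 in DM (log2 difference -0.23, adjusted p = 0.062 by limma). ECM2, a matrix protein with leucine-rich repeats, averaged 24.0 ± 0.857 and 31.9 ± 1.36 FPKM, a log2 difference of 0.40 that passed the adjusted p (5.9e-04 by limma) but not the fold threshold. Within a library, OGN over ASPN was 0.81 ± 0.0693 in GM and 0.29 ± 0.0133 in DM, and OGN over ECM2 was 6.62 ± 0.893 and 1.63 ± 0.0874 (p = 0.1 for each in the exact permutation test). Such ratios do not depend on how the libraries were scaled. All 4 genes lie within the span of CENPP, a centromere protein gene on the plus strand (chr8:83951574-84187164). CENPP fell as well, from a mean of 7.30 FPKM to 1.54, where mean OGN fell from 159.3 to 51.9 and ECM2 rose. The libraries were strand-specific, but whether the authors counted by strand is not given in the sources used here. What part reads of CENPP had in the values of these genes was not tested.

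The chromosome 16 pair diverged. FMOD, on the minus strand at chr16:1122157-1132658, encodes fibromodulin, which guides collagen cross-linking by lysyl oxidase. It held 198.1, 189.5 and 202.1 FPKM in GM and 344.1, 373.1 and 327.1 in DM. The groups were far apart. FMOD rose 1.77-fold by the means, with a log2 fold change of 0.82 (interval 0.68 to 0.96) and an adjusted p of 2.0e-05 by limma. PRELP, on the plus strand near by, encodes a proteoglycan that binds collagen at one end and heparan sulfate at the other. It held 17.7, 17.2 and 18.4 FPKM in GM and 9.93, 11.7 and 9.89 in DM, again without overlap. PRELP fell 1.69-fold, with a log2 fold change of -0.71 (interval -0.87 to -0.54) and an adjusted p of 0.00012 by limma. FMOD over PRELP went from 11.1 ± 0.126 to 33.2 ± 1.34 within libraries, again with p = 0.1 in the exact permutation test. OPTC, the gene next to PRELP, averaged 0.142 FPKM in GM and was not tested.

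**Figure D2:**
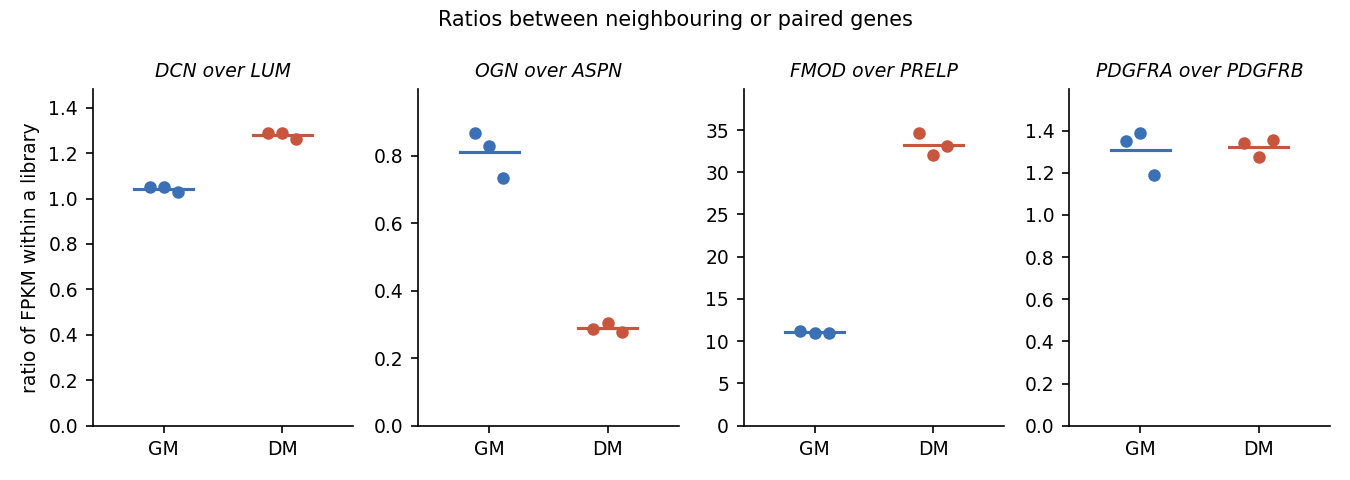
Ratio of the FPKM of 2 genes within each input library, for neighbouring proteoglycan genes and for the PDGF receptors, with GM libraries in blue, DM libraries in red, and a bar at the mean. Of the ratios drawn, OGN over ASPN was lower in DM, DCN over LUM and FMOD over PRELP were higher, and PDGFRA over PDGFRB overlapped between the groups.

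The third GM culture had the lowest GM level of DCN, LUM, OGN, ASPN and PDGFRA and the highest of FMOD, PRELP, PDGFRB and THY1. How often it was the lowest or highest over all genes was not counted. It was set apart for OGN (128.7 FPKM against 176.6 and 172.6) but not for FMOD (202.1 against 198.1 and 189.5). Without the third GM culture, the same 3 genes were called, and the log2 fold change of OGN was -1.73.

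PODN had the largest change of any small leucine-rich proteoglycan tested. It encodes podocan, a collagen-binding member of the family, and it held 2.31, 1.94 and 2.56 FPKM in GM and 23.9, 23.5 and 21.6 in DM. PODN rose 10.1-fold, with a log2 fold change of 2.88 (interval 2.69 to 3.07) and an adjusted p of 2.4e-07 by limma. It was the only call among the 5 other family members tested, where 11.9% of all genes tested were called. PODNL1, its close relative, averaged 0.317 ± 0.0238 FPKM in GM and 0.891 ± 0.187 in DM, without overlap and 2.81-fold higher by the means. Its log2 difference was 0.52 (adjusted p = 0.0028 by limma), short of the fold threshold with a pseudocount of 1, but it was called with a pseudocount of 0.5 (0.76) or 0.1 (1.23) and with TPM scaling (0.90). TSKU (tsukushi) averaged 17.6 and 16.6 FPKM. KERA, EPYC, OPTC, CHAD and CHADL were under the filter, with means below 0.7 FPKM in both groups. BGN and NYX were not analysed here.

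The surface genes differed little between the media, and none of the 3 was called. PDGFRA, the receptor tyrosine kinase used to recognise fibro-adipogenic progenitors, held 37.1, 38.8 and 34.7 FPKM in GM and 44.8, 43.7 and 44.4 in DM. PDGFRB, the paralogous receptor known from pericytes and other stromal cells, held 27.4, 27.9 and 29.2 FPKM in GM and 33.5, 34.2 and 32.7 in DM. For both receptors each DM library exceeded each GM library. The log2 fold change was 0.26 (interval 0.14 to 0.38, adjusted p = 0.0053 by limma) for PDGFRA and 0.24 (interval 0.13 to 0.35, adjusted p = 0.0049 by limma) for PDGFRB. PDGFRA over PDGFRB within a library was 1.31 ± 0.106 in GM and 1.32 ± 0.0429 in DM, and the groups overlapped (p = 0.9 in the exact permutation test). THY1 encodes CD90, a surface glycoprotein of fibroblasts. It held 73.5, 70.8 and 84.0 FPKM in GM and 74.0, 80.8 and 72.2 in DM, with overlap and an interval of -0.18 to 0.17 for the log2 difference (adjusted p = 0.96 by limma).

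DCN, PDGFRA and PDGFRB kept their direction when the libraries were scaled to TPM, at log2 differences of 0.46, 0.39 and 0.37, or by median-of-ratios size factors, at 0.39, 0.32 and 0.30.

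**Figure D3:**
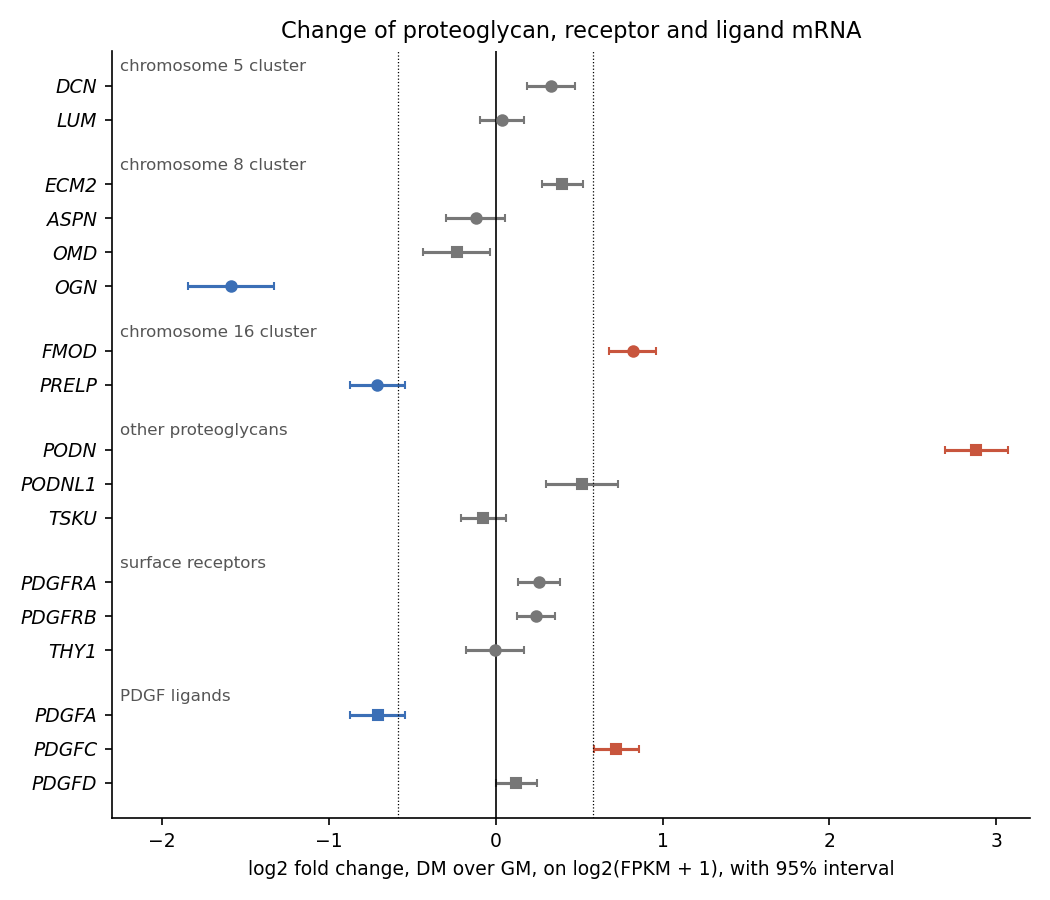
Log2 fold change of DM over GM on the log2(FPKM + 1) scale with its 95% interval from limma (3 libraries a group). Circles are the 9 genes, squares are related proteoglycans and PDGF ligands, red and blue mark genes called higher or lower, and dotted lines mark a 1.5-fold change. PODN lay farthest to the right at 2.88 and OGN farthest to the left at -1.59.

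The ligands of the PDGF receptors moved in both directions. PDGFC, which activates PDGFRA after cleavage, rose from 19.3 ± 1.32 to 32.5 ± 0.18 FPKM (log2 fold change 0.72, adjusted p = 3.5e-05 by limma). PDGFA, the ligand that acts mainly on PDGFRA, fell from 5.48 ± 0.308 to 2.97 ± 0.242 FPKM (-0.71, adjusted p = 1.3e-04 by limma). PDGFD, a ligand of PDGFRB, had 12.9 and 14.2 FPKM and did not pass (0.12, adjusted p = 0.092 by limma). PDGFB averaged 0.305 and 0.214 FPKM and was not tested. Of 19 signal transducers of the receptors 0 were called, by the limma rule, where 11.9% of all genes tested were. Against 42.8% of all genes, 8 of the 19 had an adjusted p under 0.05, 4 higher and 4 lower. The largest of their differences were in PIK3R1 (0.49) and PIK3CA (0.48), subunits of phosphoinositide 3-kinase, and in RASA1 (-0.42), which turns off Ras. With TPM scaling PIK3R1 (0.64) and PIK3CA (0.62) were called.

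Genes that make or use the proteoglycans gave further counts. Of 26 tested genes for glycosaminoglycan chains 1 was called higher and 1 lower, where 11.9% of all genes tested were called. XYLT1, the xylosyltransferase that starts chondroitin and dermatan sulfate chains such as that of decorin, rose from 5.85 ± 0.666 to 14.4 ± 0.234 FPKM. CHST15, which adds a sulfate to chondroitin sulfate, fell from 1.98 ± 0.151 to 0.511 ± 0.0222. CHST6, a sulfotransferase of keratan sulfate, averaged 3.16 FPKM in GM and 1.86 in DM, 1.70-fold lower and without overlap (log2 difference -0.53, adjusted p = 0.009 by limma). It was not called with a pseudocount of 1, but was with 0.5 (-0.61) or 0.1 (-0.71) and without the first GM culture (-0.62). CHPF, a chondroitin polymerizing factor, had a log2 difference of 0.50 and was called with TPM scaling (0.64). The median log2 fold change of that list was -0.01.

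Among 19 genes for fibrillar collagens and their processing 3 were called higher and 2 lower, where 11.9% of all genes tested were called. The median log2 fold change of the 19 was 0.33 against -0.05 over all genes. COL12A1, a collagen at the surface of fibrils, rose from 845.0 ± 31.9 to 1659 ± 38.9 FPKM, and COL5A3 from 0.991 ± 0.0878 to 3.21 ± 0.387. LOXL4, a lysyl oxidase-like enzyme, rose from 151.7 ± 10.02 to 242.8 ± 8.77. ADAMTS14, a procollagen peptidase, fell from 2.81 to 1.00 FPKM. The fifth call, PCOLCE2, an enhancer of procollagen cleavage named after its values were seen, fell from 7.93 to 4.70 FPKM. Of 11 tested binding partners and receptors named for decorin and biglycan 3 were called higher and 4 lower, again beside 11.9% of all genes. MET, the hepatocyte growth factor receptor, fell from 11.4 ± 0.181 to 3.78 ± 0.264 FPKM, and MSTN (myostatin) from 1.28 ± 0.28 to 0.146 ± 0.0261. BMP4 rose to 2.82 FPKM from 1.09, and LRP1, an endocytic receptor for decorin, to 298.3 from 168.8. The remaining calls, named after their values were seen, were CCN2 (higher) and TLR2 and TGFB3 (lower).

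Other fibroblast markers went both ways. Of 23 tested, 4 were called higher and 3 lower, where 11.9% of all genes tested were called. The median log2 fold change of the 23 was 0.12. SFRP1, a secreted Wnt antagonist, had the largest log2 fold change at 2.23, and FAP, a surface protease of activated fibroblasts, rose from 37.5 ± 3.13 to 104.8 ± 9.78 FPKM. TNXB and MFAP5, of elastic and collagen fibres, had log2 fold changes of 1.32 and 1.31. The genes called lower, named after their values were seen, were CLEC3B, NT5E and POSTN (periostin), which fell from 272.7 ± 19.9 to 131.6 ± 11.6 FPKM. The log2 fold change of NT5E, -0.59, was just past the threshold, and its call was lost with TPM scaling (-0.50), with size factors (-0.53) and when GM culture 2 or 3 or DM culture 1 or 3 was left out (-0.58 to -0.53). Other markers gained a call. DPT was called higher with TPM scaling (0.67) and with size factors (0.60), and GSN with TPM scaling (0.59). CD248 was called lower without GM culture 2 (-0.60) or without DM culture 2 (-0.70).

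The 5 genes whose pattern over the 6 libraries lay nearest to that of OGN, the member with the largest change, were FBXO5, FGF7, NCAPG, CENPW and SPINK5. The measure was the Euclidean distance of log2(FPKM + 1) centred on each gene's mean, which was 0.15 for FBXO5 and 0.22 for SPINK5, over 12302 genes. FGF7, a fibroblast growth factor, had 43.4 ± 5.88 FPKM in GM and 14.3 ± 0.363 in DM, and the others had means of 2.83 to 10.6 FPKM in GM.

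The m6A peak lists placed peaks in 6 of the 9 genes and left DCN, OGN and ASPN without any. Each list is 1 set of peaks called on pooled libraries, so no peak value has a replicate error and the comparison of GM with DM has no test. Of the genes that averaged 10 FPKM or more, 70.2% had a GM peak and 79.9% a DM peak, and 18.1% had none in either list. The 3 genes without a peak were highly expressed, at means of 598.7 (DCN), 187.6 (ASPN) and 105.6 FPKM (OGN). Of all 565 genes at 100 FPKM or more, 26.7% had no peak. No peak of any gene on either strand had bases within the bodies of these 3 genes.

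**Figure D4:**
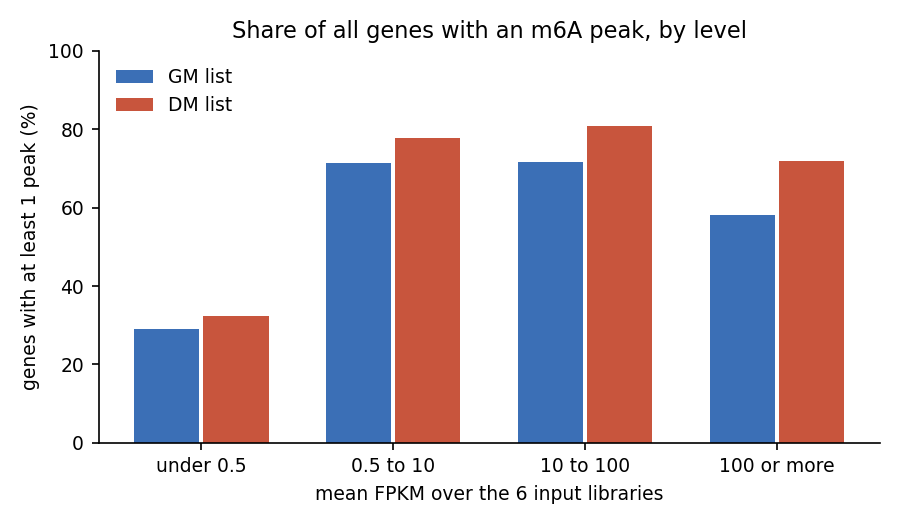
Percent of all genes in the expression table with at least 1 m6A peak in the GM list (blue) or the DM list (red), by mean FPKM over the 6 input libraries. The share was 58.1% in GM and 71.9% in DM among genes of 100 FPKM or more, the bin that holds DCN, LUM, FMOD, ASPN and OGN.

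OMD and ECM2, the other genes of the chromosome 8 cluster, had no peak of their own either. Peaks annotated to CENPP on the opposite strand did lie in their bodies. In ECM2 there was 1 in each list, with fold enrichment (IP over input) of 4.62 in GM and 4.67 in DM, and in OMD there was 1 in the DM list with 3.10. In DM the level of ECM2 was 31.9 FPKM and that of CENPP 1.54 FPKM. Whether those peaks were assigned to the right strand was not tested.

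The other 6 genes held 15 GM and 13 DM peaks. In the authors' annotation 9 of the GM peaks were labelled 3′ UTR, 5 were 5′ UTR and 1 was exon. Of the DM peaks 9 and 4 were labelled 3′ and 5′ UTR. The annotation gives 1 label per peak, although some peaks cover several exon blocks. The first PDGFRA peak covered 5 blocks in each list and was labelled exon in GM and 3′ UTR in DM. For comparison between the lists, 13 pairs of exactly 1 GM and 1 DM peak shared at least 1 base. The median fold enrichment of these pairs was 2.95 in GM and 2.68 in DM, and over all 10239 pairs it was 3.42 and 3.60. Of the 13, 1 was over 1.5-fold higher in DM (14.2% of all pairs were) and 1 over 1.5-fold lower (10.8% were), 2 in all against 25.0%.

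**Figure D5:**
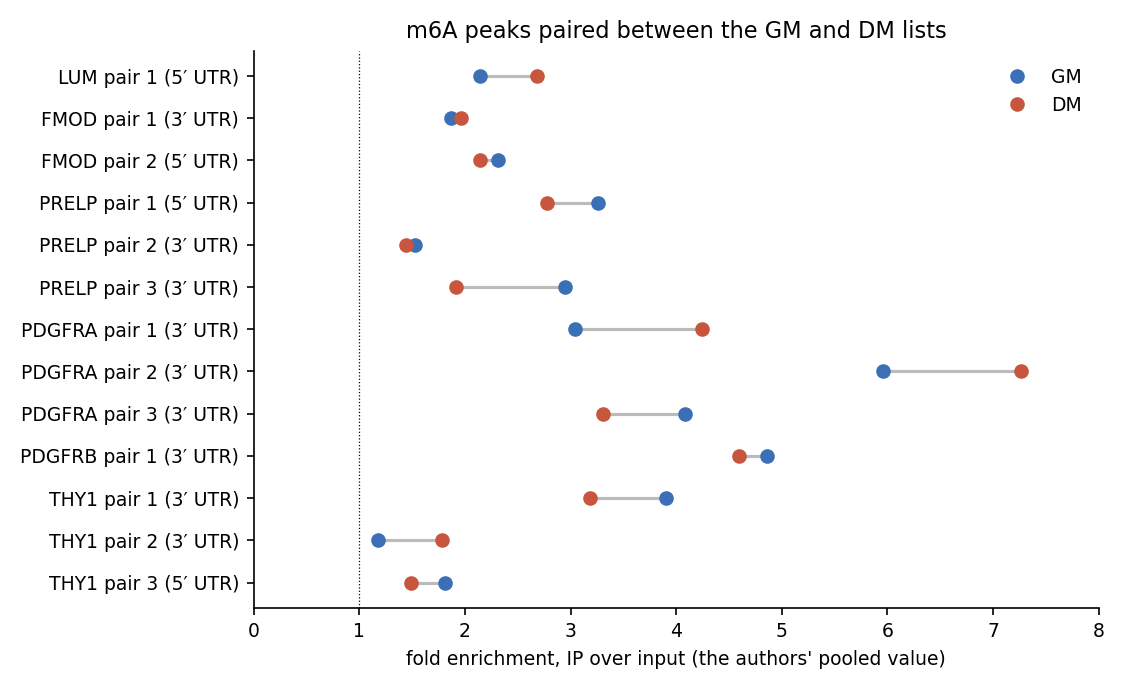
Fold enrichment of IP over input, the authors' value for the pooled libraries, for the 13 peak pairs of 6 genes in GM (blue) and DM (red), with the annotated region of the DM peak. No error bars exist because each list pools its libraries. PDGFRA pair 2 had the highest enrichment in both media, at 5.96 and 7.26.

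PDGFRA had the single most enriched peak of the set in both lists. That peak, at chr6:69765167-69768700 in GM, had a fold enrichment of 5.96 and covered 601 exon bases, and in DM it had 7.26 over 781 bases. These values were at the 77.2 and 82.3 percentiles of all peaks of their lists. A peak upstream of it went from 3.04 to 4.24, and the peak at the end of the gene (chr6:69771369-69771549) from 4.08 to 3.31. The single PDGFRB peak, in its 3′ UTR at chr7:61474501-61477203, had 4.86 in GM and 4.59 in DM. No ratio of the receptors passed 1.5.

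PRELP, which fell in mRNA, held the pair with the largest decrease. At its 3′ end (chr16:1252260-1252736) fold enrichment went from 2.95 over 477 bases to 1.92 over 329 bases, 1.54-fold lower in DM. The pair over its 5′ UTR and coding exons had 3.26 and 2.78, and the remaining pair 1.53 and 1.44. FMOD, which rose in mRNA, had low enrichment in both lists, with pairs at 1.87 and 1.96 in the 3′ UTR and 2.31 and 2.14 at the 5′ side. Its 2 other GM peaks had no partner in DM, at chr16:1123537-1123627 (1.24 over 91 bases) and chr16:1132268-1132328 (2.14 over 61 bases).

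LUM had 1 peak in each list, reaching the 5′ end of the gene (chr5:20975679-20978528 in GM). It had 2.14 over 445 bases in GM and 2.68 over 977 bases in DM, where LUM mRNA overlapped between groups. THY1 had 3 peaks per list. The pair at its 3′ end had 3.90 and 3.18 and that at its 5′ end 1.81 and 1.49. The third pair, 1.18 in GM and 1.78 in DM with a ratio of 1.51, was the increase counted above, but its 2 peaks shared only 1 base, so the ratio compares adjacent stretches of the 3′ UTR. With at least 50% of both peaks shared this pair dropped out, and PRELP held the only change among 10 pairs.

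Among the related genes, PODN had a 3′ UTR pair at 12.0 in GM (chr3:93157902-93158560) and 3.04 in DM, 3.95-fold lower, where its mRNA was 10.1-fold higher. The GM value rests on a gene of 2.27 FPKM, and log10 of its false discovery rate was -2.13. The other PODN peak in DM (chr3:93159696-93164487) had 2.13, with log10 of the false discovery rate at -109. It shared bases with 2 GM peaks, of 4.90 (-1.13) and 2.59 (-18.0), and so formed no pair. TSKU pairs had 3.58 and 2.88, and 3.39 and 3.89. PDGFA pairs had 2.12 and 1.77, and 4.96 and 5.43, and PDGFD had no peak.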

How the data were processed

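Input and m6A IP libraries came from 3 GM and 3 DM cultures. Per the study's methods, the authors trimmed reads with Trimmomatic, aligned them with HISAT2 to ARS-UCD1.2, and made the deposited FPKM of the 6 inputs with StringTie (versions are not given in the sources used here). The authors tested read counts with edgeR, which were not analysed here, and FPKM hold no counts, so the spread of 3 libraries gives the precision. The deposited fold enrichment is the authors' ratio of IP over input from exomePeak on uniquely mapped reads without duplicates, pooled by group, with ChIPseeker annotation. For each peak the authors also deposited an unadjusted p-value, with log10 of it and of the false discovery rate in other columns.

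Expression was fitted with limma 3.58.1 (R 4.3.3, moderated variances with a trend) on log2(FPKM + 1), leaving out genes that averaged under 0.5 FPKM, with Benjamini-Hochberg adjustment over all 12302 genes. Calls used the study's thresholds. Peaks were paired by shared exon-block bases on the same strand (Python 3.11.15, pandas 2.3.3, numpy 2.4.6), and figures were drawn with matplotlib 3.10.9. Both steps were tested on simulated data. The 9 genes and all lists were chosen with earlier results of these data known. Of each other list, up to 4 genes with the largest change and, for marker lists, up to 3 with the highest level were named, besides all related proteoglycans, PDGF ligands and cluster neighbours. CD34 and PI16 were named outside this rule. No sequences are shown, as no sequence tables were used here. Alternatives covered the pseudocount, filter, scaling, variance trend, replicate block, thresholds, each library left out, stricter peaks, centred ratios and a stricter overlap.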

Additional observations from a re-analysis of the deposited data

How the results depend on the processing

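The call of OGN, FMOD and PRELP was the same under each pseudocount, filter, scaling and variance setting run, and with each culture left out. With a fold over 2, OGN was the single call (1 of 9), since FMOD (0.82) and PRELP (-0.71) are below that fold, and 507 genes in all and 20 on the lists were called instead of 1461 and 43. With the adjusted p alone, 6 of the 9, 5268 genes and 87 list genes passed, among them DCN (0.33), PDGFRA (0.26) and PDGFRB (0.24). TPM scaling moved the median of all genes from -0.05 to 0.06 and turned the sign of ASPN (0.0035) and THY1 (0.12), and size factors that of THY1 (0.056). None of these passed. Leaving out 1 culture gave LUM -0.0070 to 0.0756, THY1 -0.0552 to 0.0659 and 1483 to 1519 calls.

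Same-numbered GM and DM libraries did not deviate alike from their group means (r of deviations of -0.08, -0.12 and -0.21). With means of only 3 libraries, these values cannot show whether cultures of the same number were prepared together. With the replicate block 1473 genes and the same count of 3 members were called.

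Of the 13 peak pairs, 8 remained with fold enrichment of at least 2 (8 DM peaks in all) and 0 passed the ratio. With a ratio over 2, 0 passed, and 1029 of all pairs instead of 2562. With ratios centred on the median of all pairs 1 passed, and with 50% shared bases 1 did. FPKM without counts and peaks without replicates limit the precision of low genes and of every m6A ratio.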

Other observations

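PDGFRB is also a pericyte gene, and markers of pericytes and smooth muscle were present in the cultures at uneven levels. The 10 such markers in the table summed to 3074 to 3559 FPKM in GM libraries and 2537 to 2712 in DM libraries, nearly all of it ACTA2, TAGLN and CNN1, contractile proteins that myoblasts also make. ACTA2 averaged 2241 ± 224.1 FPKM in GM and 1713 ± 146.4 in DM. Of 8 tested by limma, where 11.9% of all genes tested were called, CSPG4 (NG2) and ABCC9 were called higher. They had 5.82 and 1.70 FPKM in DM, and NDUFA4L2 and NOTCH3, called lower, had 1.29 and 0.854 FPKM.

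Fat cell markers stayed low. Of 7 adipocyte markers 2 passed the filter, and PPARG, the adipogenic nuclear receptor, fell from 1.25 ± 0.105 to 0.482 ± 0.0197 FPKM (log2 fold change -0.60, adjusted p = 4.5e-04 by limma), a call that was lost with size factors and without the first GM culture (-0.57 in both). PLIN1, which coats lipid droplets, averaged 0.870 and 0.985 FPKM, and all 7 summed to 2.63 to 2.90 FPKM in GM libraries and 2.55 to 3.28 in DM libraries. Of the 5 immune markers in the table CD68 alone passed the filter, with 1.17 FPKM in GM and 1.47 in DM, and it was not called.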
